A study of Mus musculus with 6 samples.

Results

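Keratins and desmosomal genes were compared between cell lines from mouse hypothalamus. The 10 genes were 6 keratins (Krt7, Krt8, Krt18, Krt19, Krt5 and Krt14) and 4 desmosomal genes (Dsp, Jup, Pkp2 and Dsc2), chosen by name, with all probe sets that the platform annotation gives to one of them alone. All 10 were measured, by 20 of 20380 probe sets so annotated, and as genes they are 10 of 12393. Keratins are the intermediate filaments of epithelial cells and form from pairs of a type I and a type II chain. Krt8 and Krt18 are the pair of simple, single-layered epithelia, with Krt7 and Krt19 as further simple-epithelial chains, and Krt5 and Krt14 are the pair of the basal layer of stratified epithelia such as skin. Desmosomes are the junctions that hold these filaments at the cell membrane. Neurons are not known for either, although ependymal and choroid plexus cells of the brain are epithelial.

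A_212 was derived from adult and N_46 from embryonic hypothalamus. Both lines are described as expressing neuropeptide Y (NPY), and both were immortalised by overexpressing the SV40 T-antigen, which blocks p53 and retinoblastoma proteins, so that no group lacks it. Each line was grown on 3 plates to 70% confluence in medium with 5% serum, and the RNA of each plate was read on 1 oligonucleotide array, 6 arrays in all. The study compared the embryonic-derived with the adult-derived line. The plates are replicates of 1 line each: the p-values thus reflect plate-to-plate spread, and whatever else distinguishes these lines cannot be told apart from age of origin.

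The deposited values are on a log2 scale and centred, so that the 6 values of any probe set have 0 as their median. A value therefore says how far an array lay above or below the others for that probe set, and not how much RNA there was. Whether a gene was expressed at all cannot be read from it, and levels cannot be compared between genes. The base of the log is inferred, as is each fold below. Differences are N_46 minus A_212, given with a standard error (SE) from limma, n = 3 arrays per line, and a gene passed at an adjusted p under 0.05 (Benjamini-Hochberg over 12393 genes). Across all genes 39.2% passed, the lines were without overlap for 51.1%, and the median difference was 0.06. Precision is limited by the number of arrays.

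The lines differed in 1 keratin and 1 desmosomal gene of the 10, in opposite directions, where 20.9% of all genes passed higher in N_46 and 18.3% higher in A_212. Krt19 was higher in the adult-derived line by a log2 difference of 1.01 in size (2.02-fold), and desmoplakin, Dsp, was higher in the embryonic-derived line by 0.77 (1.71-fold). The other 8 genes did not pass the test, and their 95% intervals all lay between -0.27 and 0.42. A 2-fold difference, 1 on this scale, was outside each of these intervals. The share that passed, 20.0%, stands beside the 39.2% of all genes, and the median size of the difference was 0.12 in the 10 genes and 0.17 over all genes. In RNA of whole cultures, fewer cells that express a gene and less RNA per cell cannot be told apart.

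**Figure D1:**
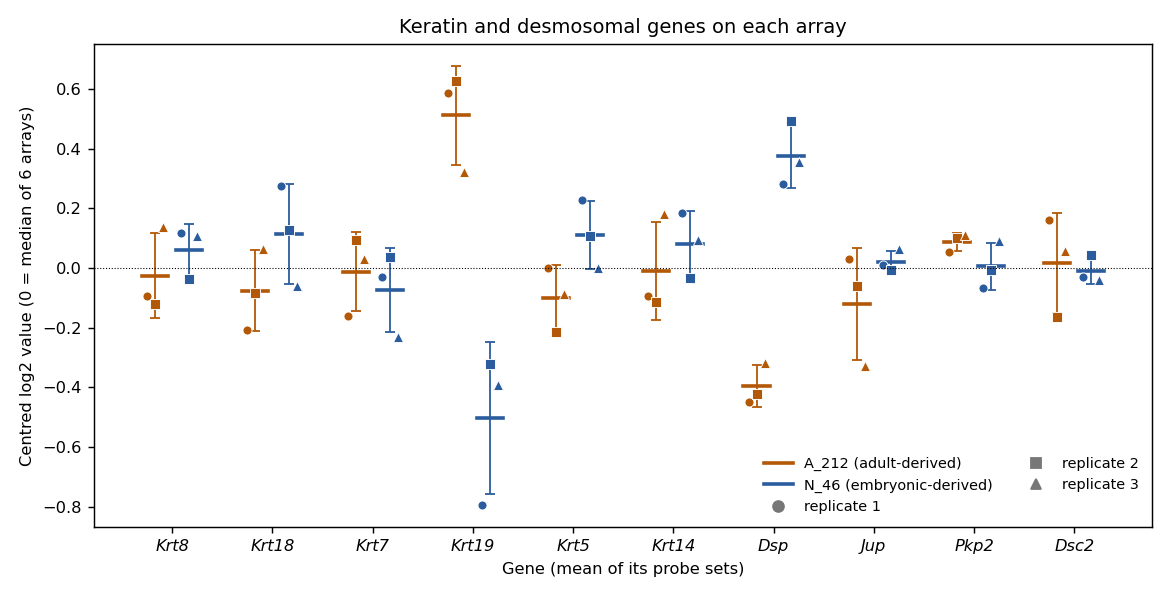
Centred log2 value of each gene on each array, with A_212 in orange and N_46 in blue; symbols mark replicates 1 to 3, thick bars the mean and whiskers 1 SD over 3 arrays. The lines are apart for Krt19, which lies between 0.32 and 0.63 in A_212, and for Dsp, which lies between 0.28 and 0.49 in N_46, and they overlap for the other 8 genes.

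Krt19, the smallest keratin, lacks most of the tail domain and partners with Krt8 in simple epithelia. Its 1 probe set read 0.59, 0.63 and 0.32 on A_212 replicates 1 to 3, and -0.79, -0.32 and -0.39 on N_46 replicates 1 to 3. All A_212 arrays were above all N_46 arrays, and N_46 replicate 1 was the lowest. The difference was -1.01 ± 0.13 (SE, n = 3 arrays per line; 95% interval -1.30 to -0.73), with a limma adjusted p of 0.00011. Its size was larger than that of 94.3% of all genes. The spread was wide, with an SD of 0.17 in A_212 and 0.25 in N_46 against medians of 0.10 and 0.08 over all genes. Leaving out 1 array at a time gave differences from -1.11 to -0.87.

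The other simple-epithelial keratins did not pass. Krt8, the type II chain of simple epithelia, read -0.09, -0.12 and 0.14 on the A_212 arrays and 0.12, -0.04 and 0.11 on the N_46 arrays, as the mean of 3 probe sets. The lines overlapped, with A_212 replicate 3 the highest array of all. The difference was 0.09 ± 0.09 (95% interval -0.11 to 0.28, limma adjusted p = 0.47). Its probe sets differed by 0.24, 0.05 and -0.02, and none of the 3 passed. The one at 0.24 passed without N_46 replicate 2 (0.35, adjusted p = 0.035).

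Krt18, the type I chain that pairs with Krt8, read -0.21, -0.08 and 0.06 in A_212 and 0.28, 0.13 and -0.06 in N_46. N_46 replicate 3 fell among the A_212 values. The difference was 0.19 ± 0.10 (95% interval -0.04 to 0.42, adjusted p = 0.17). Krt7, a type II chain of glandular and ductal epithelia, read -0.16, 0.09 and 0.03 in A_212 and -0.03, 0.04 and -0.23 in N_46. The lines overlapped in part, with A_212 replicate 2 the highest array and N_46 replicate 3 the lowest, and the difference was -0.06 ± 0.10 (95% interval -0.27 to 0.15, adjusted p = 0.64).

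Neither chain of the basal pair passed. Krt5 read 0.0010, -0.22 and -0.09 in A_212 and 0.23, 0.11 and -0.0010 in N_46, so that the lines just overlapped at the highest A_212 and the lowest N_46 array. Its difference of 0.21 ± 0.09 was the largest among the 8 genes that did not pass (95% interval 0.02 to 0.40), with a limma adjusted p of 0.078. Krt14, the type I partner of Krt5, read -0.09, -0.11 and 0.18 in A_212 and 0.19, -0.03 and 0.09 in N_46. Its difference was 0.09 ± 0.10 (95% interval -0.12 to 0.31, adjusted p = 0.49), and its 3 probe sets lay at 0.16, 0.02 and 0.10. A further probe set, annotated to both Krt17 and Krt14, was left out of the fit. It read from -0.22 to -0.02 in A_212 and from 0.02 to 0.11 in N_46, so its lines did not overlap, and it cannot be assigned to either gene.

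Desmoplakin is the plakin that ties keratin filaments to the desmosome. Dsp read -0.45, -0.42 and -0.32 in A_212 and 0.28, 0.49 and 0.35 in N_46, as the mean of 3 probe sets. Every N_46 array was above every A_212 array, and the arrays of a line were close together, with SDs of 0.07 and 0.11. The difference was 0.77 ± 0.08 (SE, n = 3 arrays per line; 95% interval 0.60 to 0.95, limma adjusted p = 2.6e-05), larger in size than that of 91.4% of all genes. Leaving out 1 array at a time gave 0.71 to 0.82.

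The 3 probe sets of Dsp disagreed in size. The probe set 1435494_s_at read -0.56, -0.64 and -0.74 in A_212 and 0.56, 0.84 and 0.75 in N_46, a difference of 1.36 (95% interval 1.16 to 1.57). The probe set 1435493_at read -0.49, -0.21 and -0.26 in A_212 and 0.33, 0.57 and 0.21 in N_46, a difference of 0.70 (0.45 to 0.94). Both passed over all probe sets, where 37.4% of 20380 passed and the lines did not overlap for 49.7%. The third, 1427610_at, read -0.29, -0.42 and 0.05 in A_212 and -0.05, 0.07 and 0.10 in N_46. It differed by 0.26 (0.0023 to 0.51, adjusted p = 0.11 in limma over all probe sets), and A_212 replicate 3 lay among the N_46 values. It passed without A_212 replicate 3, at 0.39 (adjusted p = 0.0093), and with array weights, at 0.33 (adjusted p = 0.016). The intervals of the first and the third probe set did not overlap. The suffix of 1435494_s_at marks probes that can match several transcripts, and with plain probe sets alone, which leaves it out, the difference of the gene was 0.48 (adjusted p = 0.0020).

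The other desmosomal members of the group did not pass. Jup encodes plakoglobin, the armadillo protein that joins desmosomal cadherins to desmoplakin and also sits at adherens junctions. It read 0.03, -0.06 and -0.33 in A_212 and 0.0082, -0.0082 and 0.06 in N_46, with A_212 replicate 3 the lowest array. The difference was 0.14 ± 0.09 (95% interval -0.07 to 0.35, adjusted p = 0.27). The desmosomal cadherin Dsc2 read 0.16, -0.17 and 0.06 in A_212 and -0.03, 0.04 and -0.04 in N_46. All 3 N_46 arrays fell within the range of A_212, and the difference was -0.03 ± 0.09 (95% interval -0.23 to 0.17, adjusted p = 0.84).

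Pkp2, the plakophilin of simple epithelia and heart, links the cadherin plaque to desmoplakin. It read 0.05, 0.10 and 0.11 in A_212 and -0.07, -0.01 and 0.09 in N_46, with N_46 replicate 3 among the A_212 values. The difference was -0.08 ± 0.07 (95% interval -0.24 to 0.08, adjusted p = 0.40). Its 4 probe sets lay at 0.07, -0.11, -0.03 and -0.26, and none of the 4 passed. The last, 1460511_at, passed without A_212 replicate 2, at -0.39 (adjusted p = 0.0071). The plot of genes and probe sets side by side shows these disagreements.

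**Figure D2:**
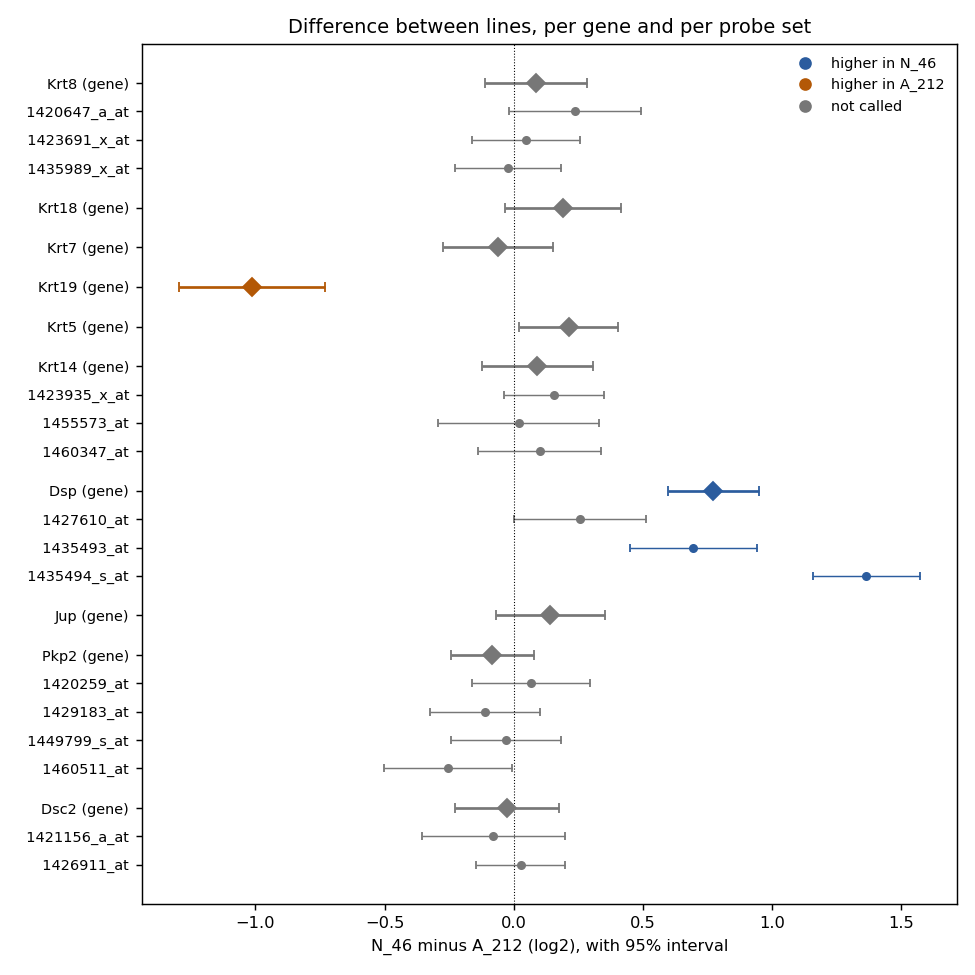
Difference N_46 minus A_212 (log2) with its 95% interval for each gene (diamonds) and, for genes with more than 1 probe set, for each probe set (circles); blue passed and was higher in N_46, orange passed and was higher in A_212, grey did not pass. Krt19 stands at -1.01 and Dsp at 0.77, with the probe sets of Dsp spread from 0.26 to 1.36, and the other genes lie near 0.

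Upstream sequence is shown for the desmosomal gene that differed and for a neighbouring keratin pair that did not pass. RefSeq promoters of assembly GRCm38.p6 were given for 7 of the 10 genes, and the 250 bases before the start are printed, 5′ to 3′, for Dsp (chr13:38151044-38151293, plus strand), Krt8 (chr15:102004343-102004592, minus strand) and Krt18 (chr15:102027966-102028215, plus strand). Capitals mark the GC box GGGCGG or its reverse complement CCGCCC, and the E-box CAGGTG or its reverse complement CACCTG, searched on both strands.
Dsp: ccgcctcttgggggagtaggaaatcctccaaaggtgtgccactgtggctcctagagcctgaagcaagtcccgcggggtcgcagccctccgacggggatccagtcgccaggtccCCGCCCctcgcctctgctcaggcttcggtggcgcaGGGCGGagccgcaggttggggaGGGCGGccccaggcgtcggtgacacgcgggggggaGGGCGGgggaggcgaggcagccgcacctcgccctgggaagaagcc
Krt8: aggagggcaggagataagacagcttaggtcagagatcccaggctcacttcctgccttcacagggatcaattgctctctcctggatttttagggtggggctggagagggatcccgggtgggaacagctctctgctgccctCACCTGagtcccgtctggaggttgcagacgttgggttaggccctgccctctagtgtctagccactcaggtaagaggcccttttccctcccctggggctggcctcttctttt
Krt18: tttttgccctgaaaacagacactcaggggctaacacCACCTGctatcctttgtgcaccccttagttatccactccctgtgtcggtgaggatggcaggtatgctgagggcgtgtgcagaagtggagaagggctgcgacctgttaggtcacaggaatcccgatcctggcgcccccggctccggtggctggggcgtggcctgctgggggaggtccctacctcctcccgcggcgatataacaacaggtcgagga
The Dsp sequence held 4 GC boxes, and at least 1 was found in 32.7% of all 32851 promoter windows of this length. How many windows held 4 was not counted. Of the Dsp bases 72.4% were G or C, against a median of 52.4% over all windows. Krt8 and Krt18 each held 1 E-box, found in 17.2% of all windows, and were 58.0% and 60.4% G or C. In these sequences no 2 motifs overlapped. A match describes letters, and binding was not measured.

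Most keratin genes lie in 2 clusters, of type II genes on chromosome 15 and of type I genes on chromosome 11, with the type I gene Krt18 at the end of the type II cluster beside Krt8. Krt7, Krt5, Krt8 and Krt18 are in the former and Krt19 and Krt14 in the latter. The measured neighbours of Krt19 did not pass: Krt15 on one side differed by 0.16 (95% interval -0.02 to 0.33), and Krt14, the next measured keratin on the other, by 0.09. Of 21 keratins measured in the type II cluster, 1 passed, and the other 20 differed by -0.06 to 0.21. The one that passed was Krt80, a keratin of differentiating epithelia at the outer end of the cluster next to Krt7. It read from -0.68 to -0.37 in A_212 and from 0.37 to 0.55 in N_46, a difference of 0.97 ± 0.09 (limma adjusted p = 1.3e-05). Of 19 keratins in the type I cluster 2 passed, Krt19 and the hair keratin Krt36 (0.28 ± 0.08, adjusted p = 0.015), and the other 17 lay between -0.22 and 0.21. Krt36 did not pass without A_212 replicate 2, N_46 replicate 2 or N_46 replicate 3 (adjusted p = 0.056, 0.064 and 0.067).

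**Figure D3:**
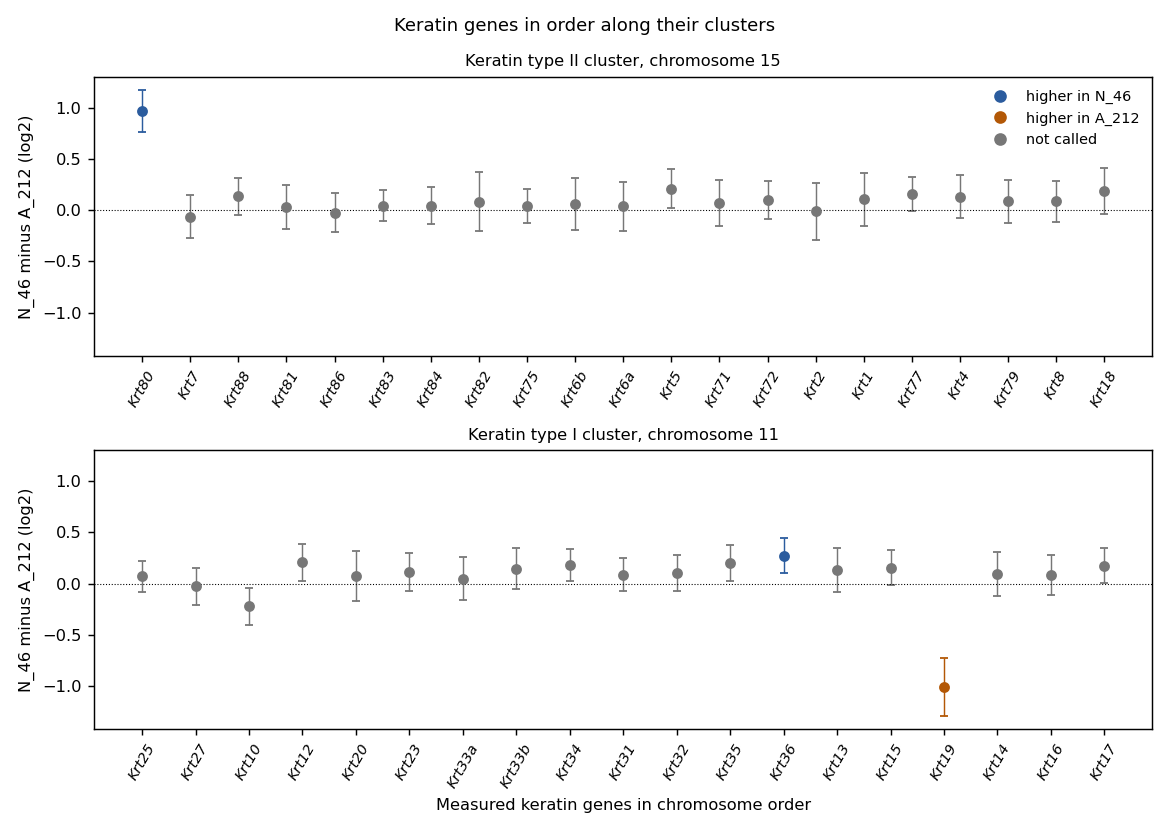
Difference N_46 minus A_212 (log2) with its 95% interval for each measured keratin gene, in chromosome order and not to genomic scale, for the type II cluster (upper panel) and the type I cluster (lower panel); colours as for genes that passed (blue higher in N_46, orange higher in A_212) or did not (grey). Krt80 at 0.97 and Krt19 at -1.01 stand apart, and the keratins that did not pass lie between -0.22 and 0.21.

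Across the 10 genes and the other keratins listed, 39 keratins were measured. Of these, 2 passed higher in N_46, 1 higher in A_212 and 36 did not pass, a share passed of 7.69% beside 39.2% of all genes. Their median difference was 0.09, near the 0.06 of all genes. One array moved with these counts. A_212 replicate 3 was the highest array of its line for 31 of the 39 keratins (79.5%), against 35.3% of all genes. Without it, Krt1 (0.26), Krt4 (0.25) and Krt71 (0.20) of the type II keratins also passed. Of the type I keratins, Krt12 (0.26), Krt17 (0.24), Krt35 (0.27) and, in the other direction, Krt10 (-0.29) passed without it. The calls for Krt19 and Krt80 held without it. The pattern was not limited to keratins. The mean of the epithelial transcription and splicing regulators listed was -0.13, -0.12 and 0.0078 on A_212 replicates 1 to 3. Of these regulators, Grhl1 (0.21) and Esrp1 (0.25) also passed without A_212 replicate 3.

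Of 14 desmosomal genes measured, 4 passed higher in N_46, 1 higher in A_212 and 9 did not. The share that passed was 35.7%, near the 39.2% of all genes. The 10 beyond Dsp, Jup, Pkp2 and Dsc2 had a median difference of 0.09. Perp, a p53 target whose membrane protein sits in desmosomes, read -2.57, -2.75 and -2.89 in A_212 and 2.67, 2.57 and 2.77 in N_46. With a difference of 5.41 ± 0.09 (42.5-fold, limma adjusted p = 1.0e-10) it was the largest difference among the desmosomal genes measured. Pkp1, the plakophilin of stratified epithelia, read from -1.38 to -0.73 in A_212 and from 0.73 to 1.21 in N_46, a difference of 2.12 ± 0.17 (4.35-fold). Corneodesmosin, Cdsn, an adhesive glycoprotein of the outer skin, differed by 1.22 ± 0.07 (2.33-fold). Pkp4, a relative of the plakophilins, was the one higher in the adult-derived line, at -0.47 ± 0.07. The desmosomal cadherins did not pass: Dsg2, the desmoglein of simple epithelia, differed by 0.08, Dsc1 by 0.02 and Dsc3 by 0.03. Pkp3, with a difference of 0.10 (95% interval -0.05 to 0.24), and the plakins Ppl (-0.18) and Evpl (0.09) did not pass either.

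**Figure D4:**
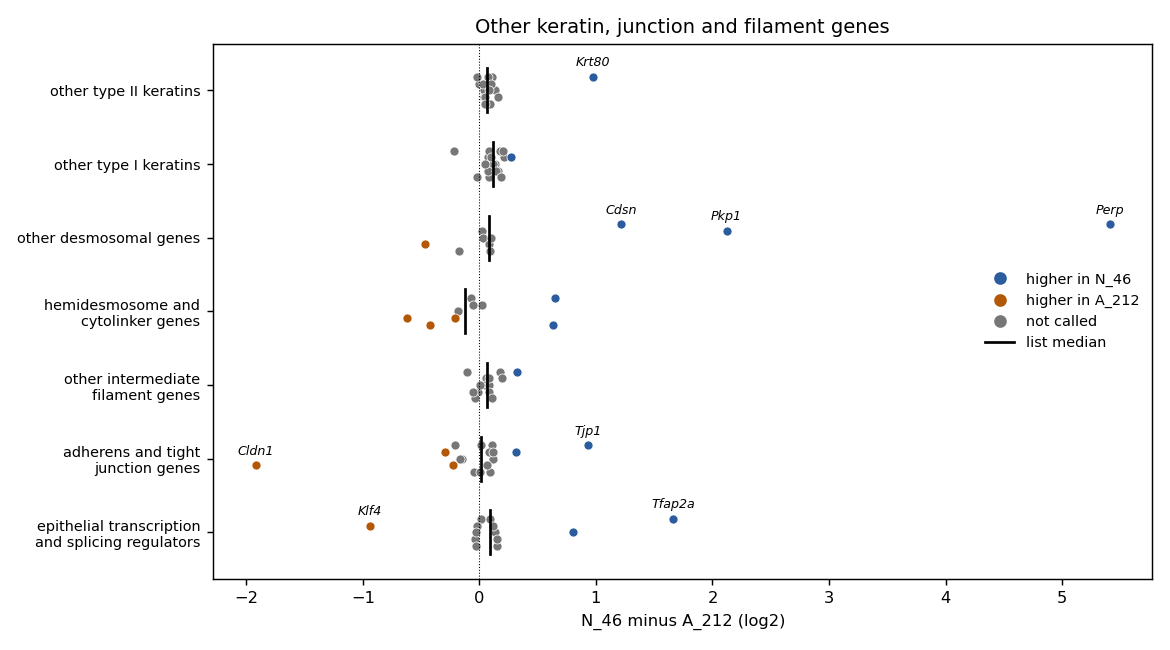
Difference N_46 minus A_212 (log2) of each measured gene of 7 related lists; blue and orange points passed and were higher in N_46 or A_212, grey points did not pass, black bars mark the list median and vertical offsets within a list carry no meaning. Perp at 5.41, Pkp1 at 2.12 and Cldn1 at -1.92 lie farthest out, while each list's median lies between -0.13 and 0.12.

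Genes that act beside keratins and desmosomes divided in direction, where 20.9% of all genes passed higher in N_46 and 18.3% higher in A_212. Of 10 hemidesmosome and cytolinker genes, 2 passed higher in N_46 and 3 higher in A_212 (median -0.13). The integrin chain Itga6 (0.63) and the tetraspanin Cd151 (0.65), which work together at hemidesmosomes, were among the former, and their partner Itgb4 differed by -0.07 and did not pass. The cytolinkers Eppk1 (-0.62), Plec (-0.42) and Macf1 (-0.21) passed higher in A_212. Of 14 other intermediate filament genes, the neural progenitor filament Nes was the 1 that passed (0.32), and vimentin, Vim, differed by -0.06 and desmin, Des, by 0.06 without passing (median 0.07).

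Of 17 adherens and tight junction genes, 2 passed higher in N_46 and 3 higher in A_212 (median 0.02). The claudin Cldn1 was higher in the adult-derived line (-1.92 ± 0.10, 3.78-fold), as were Cdh2 (-0.30) and Ctnna1 (-0.23). The scaffold genes Tjp1 (0.94) and Tjp3 (0.32) were higher in the embryonic-derived line. E-cadherin, Cdh1, differed by 0.11 and Epcam by 0.12, and neither passed. Of 13 epithelial transcription and splicing regulators, Tfap2a (1.66) and Klf5 (0.81) passed higher in N_46 and Klf4 (-0.94) higher in A_212, and 10 did not pass (median 0.09). Some of these calls were lost when 1 array was left out. Nes did not pass without A_212 replicate 2 or 3 or N_46 replicate 2 or 3 (adjusted p = 0.10, 0.083, 0.11 and 0.094), nor Macf1 without A_212 replicate 1 or 2 or N_46 replicate 2 or 3 (0.14, 0.068, 0.12 and 0.18). Cdh2 did not pass without A_212 replicate 1 or N_46 replicate 2 or 3 (0.071, 0.053 and 0.080), and Tjp3 without A_212 replicate 2 or N_46 replicate 1 or 3 (0.060, 0.051 and 0.057). Ctnna1 did not pass without A_212 replicate 1 or 3 or N_46 replicate 2 or 3 (0.078, 0.065, 0.12 and 0.10).

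Marker lists of whole cell types were read on the same arrays, where 39.2% of all genes passed. Of 16 epithelial markers, which include the 6 keratins, Krt19 alone passed, and the mean of the list ranged from -0.06 to 0.08 in A_212 and from -0.01 to 0.0040 in N_46. Of 12 fibroblast and mesenchymal markers, 8 passed higher in A_212 and 2 higher in N_46, and the list mean ranged from 0.77 to 0.98 in A_212 and from -0.98 to -0.78 in N_46. The median difference of that list was -0.45, and 5 genes from Pdgfra (-3.00) to Cdh11 (-5.74) weigh most in its mean, while Col1a1 (0.55) and Twist2 (0.39) were the 2 higher in N_46. Of 7 mesothelial markers, mesothelin, Msln, was higher in N_46 (3.83 ± 0.10) and Krt19 in A_212, and the others, Krt8 and Krt18 included, did not pass. The part of these cell types in the differences of Krt19 and Dsp was not tested. Of 13 neuronal markers, 2 passed higher in N_46, 3 higher in A_212 and 8 did not. Those higher in A_212 were Stmn2 (-3.09), Tubb3 (-1.13) and Elavl2 (-0.75), and those higher in N_46 were Map2 (0.25) and Gap43 (0.24). The mean of that list ranged from 0.14 to 0.16 in A_212 and from -0.21 to -0.12 in N_46, and its median difference was 0.07. Because the values are centred, they do not show which of the defining markers were present or absent in either line.

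The genes nearest to the members that differed, by root mean square distance over the 6 arrays, were Map2k6 (0.05) and Gata3 (0.07) for Krt19, and Iffo2 and Ajuba for Dsp (0.04 and 0.05). Map2k6 encodes a kinase that activates p38, Gata3 a transcription factor, Iffo2 an intermediate filament family protein and Ajuba a LIM protein of cell junctions. This describes likeness over 6 arrays of 2 lines.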

How the data were processed

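RNA of 3 plates each of A_212 and N_46, grouped by the titles in the labels, was read on 6 arrays. The deposited values per probe set are log values, taken here as log2. RMA, with no version, is named in the submitters' processing notes. Each of 22690 probe sets has a median of 0 over the arrays within 5e-07, and the centring step and the log base are not given in the sources used here.

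Of the probe sets, 20380 were named for 1 gene by the platform annotation, and 691 with several genes were left out. Gene values were means of a gene's probe sets (12393 genes). Lines were compared with limma 3.58.1 in R 4.3.3 (lmFit, eBayes, two-sided, Benjamini-Hochberg). The test was checked on simulated data. Centred values allowed no filter on dim probe sets. Figures used Python 3.11.15 and matplotlib 3.10.9. Members, 7 related lists and 4 marker lists were chosen with earlier results of these data known, and no set test was run. Named were the 10 members, from each related list the genes that passed, up to 4 each way, 8 fixed genes, and the 2 nearest genes of each member that passed; other genes named were chosen after their values were seen. Chromosomes and gene order came from RefSeq GRCm38.p6, which held all 10 members. Alternatives were 2 scalings, array weights, robust eBayes, a replicate block, leaving out each array, plain probe sets alone and the median of probe sets.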

Additional observations from a re-analysis of the deposited data

How the results depend on the processing

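The counts of members that passed, 1 in each direction, were the same under all 13 alternatives (Krt7, Krt8 and Jup have no plain probe set), and Krt19 (-1.11 to -0.87) and Dsp (0.48 to 0.82) passed under each. The count of all genes that passed ranged from 3837 with plain probe sets alone to 5757 with array weights, against 4853. Setting arrays to the same median moved the median over all genes by -0.03. With it, 2284 genes passed higher in N_46 and 2472 higher in A_212, against 2586 and 2267 in the main fit. At the same 75th percentile the counts were 2416 and 2393. With the replicate block, Krt19 differed by -1.01 (adjusted p = 9.3e-05), Dsp by 0.77 (5.2e-05) and 4834 genes passed. The replicate numbers are not stated to pair the plates. Deviations from the line means correlated across genes at -0.03, -0.01 and 0.09 for replicates 1 to 3. Only for replicate 3 of A_212 was its own number the best match. Such correlations cannot show whether plates were handled in pairs. Among related lists, type I keratins higher in A_212 numbered 1 at either scaling. With array weights, 3 member probe sets, against 2, were higher in N_46, 4 type I keratins were higher in N_46 and 1 in A_212, 2 desmosomal genes, 5 hemidesmosome and 5 junction genes were higher in A_212, and 2 other filament genes were higher in N_46. With plain probe sets alone, 1 junction gene was higher in N_46 and 2 epithelial regulators were higher in A_212. Tjp1, the other junction gene higher in N_46, has no plain probe set and dropped out there, as did Macf1 and Krt36. Ctnna1 did not pass with plain probe sets alone (-0.17, limma adjusted p = 0.14), while the junction gene F11r did (-0.28, 0.017). The type I keratin Krt12 also passed there (0.22, adjusted p = 0.038). Leaving out 1 array gave, for genes higher in N_46, 1 to 4 type II keratins, 0 to 4 type I keratins, 0 to 2 other filament genes, 1 to 2 junction genes, 2 to 4 epithelial regulators and 2 to 3 member probe sets. For genes higher in A_212 it gave 0 to 1 type I keratins, 1 to 2 desmosomal genes, 2 to 4 hemidesmosome genes, 1 to 3 junction genes and 1 to 2 member probe sets. Of the related genes, Klf5 ranged from 0.40 to 0.86 and Cd151 from 0.36 to 0.85 over all alternatives, and both passed under each. The causes were not tested. Without levels, genes near background cannot be set apart.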
